A study of Mus musculus with 16 samples.

Results

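Wnt ligands, their receptors and the secreted proteins that antagonise them were followed in immortalized mouse embryonic fibroblasts, cells that grow without limit in culture and come from connective tissue of the embryo. The genes were taken by symbol, from a list made with earlier results of these data known. They are every Wnt ligand, Fzd1 to Fzd10, the co-receptors Lrp5 and Lrp6, and the receptors Ror1 and Ror2. Also included are the antagonists Sfrp1 to Sfrp5, Dkk1 to Dkk3, Wif1 and Frzb, and the feedback gene Axin2. The listed genes number 43 of the 24485 genes measured. Of these, 29 reached 1 FPKM (the deposited unit: fragments scaled to transcript length and to library size) in at least 3 of the 16 libraries and are described in detail.

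The exp line has the genotype R26M2rtTA/+;TetOcre;Sdhcfl/fl and the ctl line R26M2rtTA/+;TetOcre;Sdhcfl/wt. Both thus carry a doxycycline-dependent transactivator expressed from the Rosa26 locus and a Cre recombinase that it switches on, so that Cre can act on both copies of Sdhc, a membrane subunit of succinate dehydrogenase, in exp and on 1 copy in ctl. Both lines were given doxycycline at 1 µg/mL, also the ctl line, and were sampled at days 0, 5, 9, 12, 16 and 20, with 3 replicates per line at day 16 and 1 library per line at each other day. Each genotype is represented by 1 line, so line and genotype cannot be told apart, and p-values measure the spread between libraries of 1 line each.

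The libraries held 18121520 to 42486438 reads in genes. Sdhc, the targeted gene, had 87.8 FPKM in exp and 90.5 FPKM in ctl at day 0, and over days 5 to 20 it had 26.5 to 54.4 FPKM in exp against 47.5 to 58.6 FPKM in ctl. All 12 fibroblast markers examined reached 1 FPKM in at least 3 libraries, among them Col1a1 and Vim, with a summed level of 4526 to 5255 FPKM in exp and 3900 to 4115 FPKM in ctl. Of these markers, Pdgfra was lower in exp (15.2 to 31.0 FPKM, against 47.7 to 59.2 FPKM in ctl). Higher in exp were Col1a2 (373 to 721 against 80.4 to 103 FPKM), Col3a1 (147 to 499 against 79.3 to 118 FPKM) and Dcn (21.3 to 143 against 2.66 to 5.01 FPKM). The other fibroblast markers overlapped between the lines. Of 6 endothelial markers, Pecam1, Cdh5, Emcn and Cldn5 stayed under 0.1 FPKM in every library, and Kdr and Tek reached at most 0.860 and 0.827 FPKM. Of 6 blood markers, Ptprc, Adgre1, Lyz2 and Itgam stayed under 0.1 FPKM and Csf1r reached at most 0.152 FPKM, while Cd68 had 2.59 to 5.91 FPKM in exp and 4.65 to 6.32 FPKM in ctl. Of 6 neural and glial markers, Sox10 stayed under 0.1 FPKM and Sox2, Tubb3 and Stmn2 were above 1 FPKM in every library. Day 16 replicates 2 and 3 stood apart from replicate 1 in both lines: across genes they correlated with each other at r = 0.995 in exp and 0.997 in ctl, while replicate 1 correlated with them at 0.951 and 0.953 in the exp line and at 0.979 and 0.981 in the ctl line. Day 16 replicate 1 was closer to day 20, at r = 0.993 in exp and 0.996 in ctl. The labels do not say how the replicates were made, so the all-day differences of the members are given with and without replicates 2 and 3.

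Wnt proteins are lipid-modified secreted signals that bind frizzled receptors on nearby cells. Together with the co-receptors Lrp5 and Lrp6 they stop the destruction of beta-catenin, which then activates target genes such as Axin2 with TCF and LEF factors; other Wnt proteins act through frizzled and Ror receptors without beta-catenin. Secreted frizzled-related proteins (Sfrp genes and Frzb) and Wif1 bind the ligands, and Dkk1 and Dkk2 bind the co-receptors. In embryonic mesenchyme the pathway is known for directing the fates of bone, cartilage, fat and dermal cells.

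Over all days, 21 of the 28 members tested differed between exp and ctl, 9 higher and 12 lower in exp (limma on log2(FPKM + 1) with day as a factor, Benjamini-Hochberg adjusted p under 0.05). Of all 12559 genes tested, 35.9% were called in that fit, 19.2% higher and 16.7% lower. Without day 16 replicates 2 and 3, 20 of 27 members and 36.7% of all genes were called: Ror1 lost its call, Wnt16 gained one and the mean of Wnt2 was too low for a test. At day 16 alone, 9 of 27 were called, 3 higher and 6 lower, against 6.1% of all 12533 genes tested, of which 3.1% were higher and 3.01% lower in exp. The median size of the line difference, without its sign, was 0.77 log2 for the members and 0.14 log2 for all genes over all days, and 0.55 and 0.13 log2 at day 16. In 14 of the 28 members the 8 exp and 8 ctl libraries did not overlap, 7 higher and 7 lower in exp, where 10.2% of all genes tested showed this, 5.5% higher and 4.65% lower. Among them, Wnt6, Wnt2 and Fzd3 reached 1 FPKM only in ctl, and Wnt2b and Frzb only in exp. Such members entered the test through the line where they are high, which favours a line difference. The filter was the same for all genes. The line difference was present in the single day 0 libraries: 11 of the 28 members differed there by at least 1 log2, against 7.29% of all genes, with no replicate check. Those 11 were Wnt10a, Wnt6, Wnt2, Fzd1 and Dkk3, lower in exp at day 0, and Wnt2b, Wnt5b, Fzd4, Sfrp1, Dkk2 and Frzb, higher in exp at day 0.

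**Figure D1:**
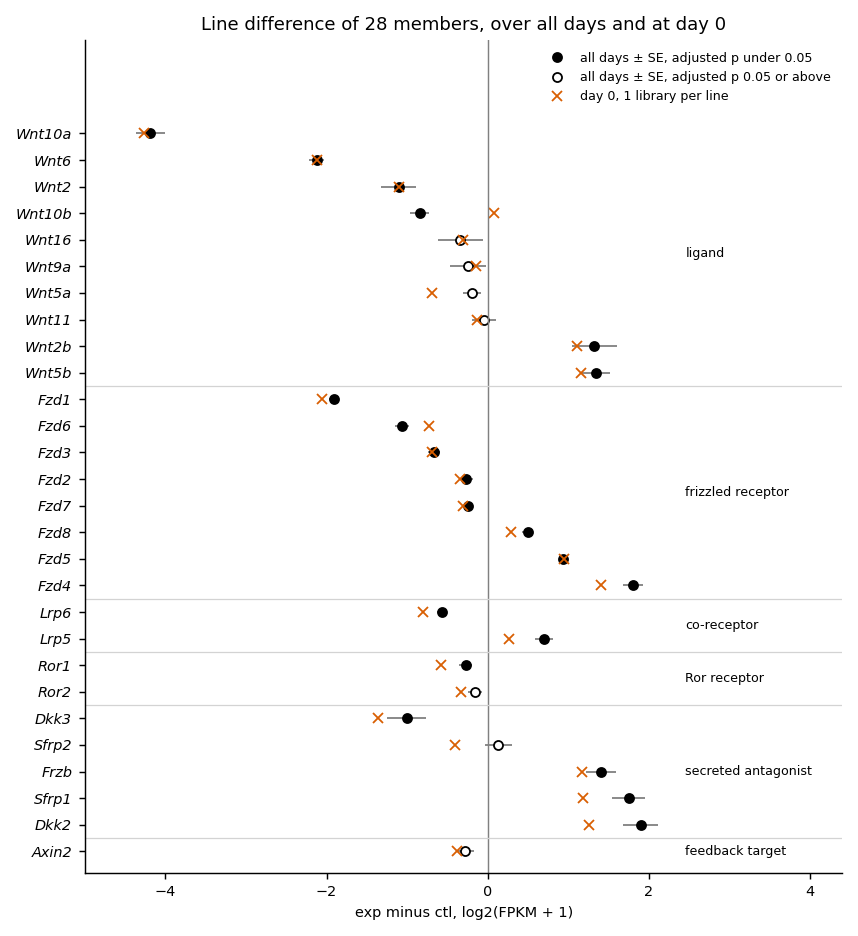
Difference between the exp and ctl lines (exp minus ctl, log2(FPKM + 1), horizontal axis) for the 28 members tested, grouped by role. Circles are the estimate over all days with its standard error, filled where the adjusted p was under 0.05 (21 of 28), and crosses are the single day 0 libraries. Wnt10a has its cross at -4.27 and its circle at -4.19, whereas Wnt10b has its cross at 0.08 and its circle at -0.85.

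Some members lie next to each other in the genome. Wnt6 (chromosome 1, 74818466 to 74831893, plus strand, mm9) and Wnt10a (chromosome 1, 74838090 to 74850753, plus strand) are 6196 bases apart, and both were lower in exp. Wnt10b (chromosome 15, 98602184 to 98608581, minus strand) lies 11706 bases from Wnt1, which reached at most 0.0901 FPKM in either line. Wnt3a and Wnt9a are 16175 bases apart and Wnt9b and Wnt3 24328 bases apart, and Wnt9a is the only one of these 4 that was described.

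The promoters of 3 members are shown, the ligand, the frizzled receptor and the antagonist with the largest all-day difference among those with an entry: Wnt6 and Fzd1 (lower in exp) and Dkk2 (higher in exp). The sequences are RefSeq windows of GRCm38.p6, 250 bases before to 50 bases after the start of the gene, on the gene's own strand. They come from chr1:74771642-74771941 (plus strand), chr5:4758167-4758466 (minus strand) and chr3:132085042-132085341 (plus strand). Capitals mark CTTTGA or its reverse complement TCAAAG, the core bound by TCF and LEF factors.
Wnt6 promoter: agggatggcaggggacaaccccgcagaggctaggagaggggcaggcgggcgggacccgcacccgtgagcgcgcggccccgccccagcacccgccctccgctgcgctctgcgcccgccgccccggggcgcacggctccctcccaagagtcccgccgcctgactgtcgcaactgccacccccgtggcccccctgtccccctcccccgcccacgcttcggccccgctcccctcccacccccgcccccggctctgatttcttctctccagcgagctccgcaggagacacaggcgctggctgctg
Fzd1 promoter: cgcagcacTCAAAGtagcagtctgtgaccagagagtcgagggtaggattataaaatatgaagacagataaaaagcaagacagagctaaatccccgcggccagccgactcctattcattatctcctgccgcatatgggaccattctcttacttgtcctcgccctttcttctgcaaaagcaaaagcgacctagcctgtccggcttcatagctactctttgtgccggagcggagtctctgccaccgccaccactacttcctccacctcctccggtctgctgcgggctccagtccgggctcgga
Dkk2 promoter: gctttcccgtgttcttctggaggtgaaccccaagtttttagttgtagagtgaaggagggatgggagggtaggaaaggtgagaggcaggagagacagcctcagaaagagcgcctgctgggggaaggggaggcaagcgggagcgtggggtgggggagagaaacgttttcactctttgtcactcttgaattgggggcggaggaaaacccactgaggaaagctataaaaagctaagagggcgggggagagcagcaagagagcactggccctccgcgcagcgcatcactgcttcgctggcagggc
Fzd1 holds 1 copy of the core, and Wnt6 and Dkk2 hold none in these windows. Of 32851 promoters of this length, 16.0% hold the core on either strand. Promoters were found for 30 members, and 12 of the members called over all days had 14 promoters between them, of which 4 (28.6%; Fzd1, Frzb, Ror1 and 1 of the promoters of Wnt5b) hold it. Among members without an all-day call, the Dkk1 window and 1 of the Wnt11 windows hold the core too. With so few promoters, these shares were not tested against each other. The Axin2 window holds none. The member promoters are rich in CpG, with a median of 26 CpG against 7 over all promoters. Wnt10a had no entry.

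Values by library are given in the order day 0, 5, 9 and 12, day 16 replicates 1, 2 and 3, and day 20. In bulk RNA, fewer cells expressing a gene and less RNA per cell cannot be told apart.

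Among the 19 ligands, 11 were described and 10 tested, of which 2 were higher and 4 lower in exp over all days. Of all genes tested, 19.2% were higher and 16.7% lower in that fit. The summed level of all ligands was lower in exp, at 56.9 to 71.3 FPKM (median 64), against 119 to 132 FPKM (median 128) in ctl, with no overlap between the lines. The ligand genes differed in makeup as well. Wnt10a, a ligand of skin appendage and tooth development, made up 1.47% to 3.66% of the ligand sum in exp and 23.0% to 43.5% in ctl. In ctl it was the highest ligand in 6 of 8 libraries, and Wnt10b in the other 2, day 16 replicates 2 and 3. In exp the highest ligand was Wnt10b in 5 libraries, Wnt16 in day 16 replicates 2 and 3, and Wnt5a at day 12.

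Wnt10a and Wnt6 are neighbours, and both were lower in exp in every library. In exp, Wnt10a had 1.38, 1.44, 2.23, 1.04, 0.991, 1.99, 2.23 and 0.923 FPKM. In ctl it had 45.0, 43.4, 48.3, 55.2, 57.2, 29.3, 30.3 and 54.5 FPKM. The lowest ctl library was thus far above the highest exp library, and within ctl day 16 replicates 2 and 3 were the lowest. The line difference was -4.19 ± 0.18 log2 over all days (SE; limma adjusted p = 1.14e-08), and at day 0 it was already -4.27. Wnt6, a ligand of epithelial and mesenchymal tissues of the embryo, had 0.437, 0.480, 0.849, 0.880, 0.211, 0.517, 0.370 and 0.335 FPKM in exp. The ctl line had 5.22, 6.34, 4.79, 6.16, 5.78, 4.31, 5.68 and 6.07 FPKM of Wnt6. Every exp value of Wnt6 lay under 1 FPKM and every ctl value above 4 FPKM. The difference was -2.12 ± 0.10 log2 over all days (adjusted p = 1.17e-08) and -2.19 ± 0.15 at day 16 (adjusted p = 0.00118), and -2.11 at day 0. Because the added 1 FPKM compresses low values, the Wnt6 difference at day 16 was -0.93 log2 with 5 FPKM added, -3.57 with 0.1 FPKM added and -3.85 by limma voom on recovered reads, and it was called each time.

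Wnt10b, a ligand known in mesenchyme for favouring bone over fat, followed another course. In exp it had 37.2, 18.8, 20.2, 12.5, 16.2, 16.8, 18.7 and 14.3 FPKM. The ctl line had 35.1, 29.1, 37.0, 31.1, 34.4, 34.5, 36.4 and 34.2 FPKM. The lines were close to each other at day 0, and from day 5 on every exp library was below every ctl library. At day 16 Wnt10b averaged 17.2 ± 1.29 FPKM in exp and 35.1 ± 1.16 FPKM in ctl (SD, n = 3 each), a difference of -0.99 ± 0.07 log2 (SE; limma adjusted p = 0.00138), and over all days it was -0.85 ± 0.12 (adjusted p = 0.00026). Wnt10b was the 1 member of 28 whose level changed with time within the exp line, at -1.03 ± 0.25 log2 per 20 days (limma adjusted p = 0.0320), where 4.95% of all genes tested were called, 1.36% for a rise and 3.59% for a fall. The ctl slope was 0.08 ± 0.25 log2 and the difference between the slopes, -1.11 ± 0.22 log2, did not pass (adjusted p = 0.0842). The exp slope rested on the single day 0 library: without it the slope was -0.40 log2 (adjusted p = 0.531). The exp call was also lost without exp day 16 replicate 1 (0.0551), without day 9 (0.0504), day 16 (0.115) or day 20 (0.0555), and with the day 16 replicates averaged (0.0810).

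Wnt2 was lower in exp, and its relative Wnt2b, which acts with Wnt2 in early lung development, was higher. In exp, Wnt2 had 0.190, 0.313, 0.328, 0.357, 0.444, 0.842, 0.351 and 0.583 FPKM. In the ctl line the values were 1.55, 1.01, 1.18, 1.20, 1.67, 5.26, 6.08 and 1.54 FPKM. The lines did not overlap, and ctl day 16 replicates 2 and 3 stood above the other ctl libraries. The difference was -1.11 ± 0.22 log2 over all days (limma adjusted p = 0.00234) and -1.68 ± 0.39 at day 16, which did not pass (0.0629). Without ctl day 16 replicate 1 the day 16 difference was -2.12 log2 (0.00831). Without day 16 replicates 2 and 3 the mean of Wnt2 was under 1 FPKM, so its all-day difference was not tested. For Wnt2b the exp line had 2.36, 3.06, 1.66, 3.23, 8.02, 1.13, 1.21 and 6.64 FPKM. Its ctl values were 0.559, 0.610, 0.712, 0.548, 0.481, 0.481, 0.448 and 0.561 FPKM. Again the lines did not overlap, and in exp Wnt2b was highest in day 16 replicate 1 and at day 20 and lowest in day 16 replicates 2 and 3. Its difference was 1.32 ± 0.28 log2 over all days (adjusted p = 0.00358) and 1.25 ± 0.56 at day 16 (adjusted p = 0.263). On other scales the all-day differences, all called, were -2.03 log2 for Wnt2 and 2.13 for Wnt2b with 0.1 FPKM added, -0.42 and 0.55 with 5 FPKM added, and -2.45 and 2.32 by limma voom.

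Wnt5b was higher in exp over all days, while Wnt5a, the best known ligand of the branch without beta-catenin, did not pass. In exp, Wnt5b had 5.99, 8.75, 12.0, 10.6, 5.33, 2.66, 2.33 and 6.79 FPKM. Against this, ctl had 2.14, 2.85, 2.14, 2.19, 1.80, 0.967, 0.956 and 1.75 FPKM. In both lines its lowest values were day 16 replicates 2 and 3, and only these exp values overlapped with ctl. The difference was 1.34 ± 0.17 log2 over all days (limma adjusted p = 0.000114) and 0.95 ± 0.29 at day 16 (adjusted p = 0.121). With 5 FPKM added the all-day difference was 0.73 log2, also called. Wnt5a ranged from 8.39 to 15.0 FPKM in exp (median 11.1) and from 10.5 to 14.5 FPKM in ctl (median 14), and its difference was -0.20 ± 0.11 log2 (adjusted p = 0.194).

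The remaining 4 described ligands overlapped between the lines. Wnt16, a ligand known in cortical bone, had 28.8 to 35.5 FPKM in the 4 libraries of day 16 replicates 2 and 3 and 8.04 to 15.7 FPKM in the other 12. It differed between these replicates and replicate 1 by 1.75 log2 in exp and 1.53 log2 in ctl. Wnt9a, which acts in joint formation, had 1.52 to 6.72 FPKM in exp and 2.98 to 4.15 FPKM in ctl. Wnt11, a ligand of cell movement in the embryo, had 0.567 to 2.40 FPKM in exp and 1.08 to 1.39 FPKM in ctl. Wnt4, a ligand of kidney and female reproductive tract development, had 0.373 to 2.60 FPKM in exp and 0.0543 to 0.458 FPKM in ctl, and its mean was too low for a test. The all-day differences were -0.34 ± 0.28 log2 for Wnt16, -0.25 ± 0.22 for Wnt9a and -0.05 ± 0.15 for Wnt11 (limma adjusted p = 0.384, 0.416 and 0.826). Without day 16 replicates 2 and 3, Wnt16 was called at -0.40 log2 (0.00438), and it was called too without day 16, with the replicates averaged and with a replicate block. In the same fit Wnt10a differed by -4.48, Wnt6 by -2.15, Wnt10b by -0.81, Wnt2b by 1.57 and Wnt5b by 1.51 log2 (limma adjusted p at most 0.00657), and Wnt5a (-0.27), Wnt9a (-0.06) and Wnt11 (0.09) were not called. Of the 8 ligands not described, Wnt7b reached 0.250 FPKM, Wnt7a 0.157 FPKM and Wnt1 0.0901 FPKM at most, and Wnt3, Wnt3a, Wnt8a, Wnt8b and Wnt9b had at most 0.0335 FPKM.

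**Figure D2:**
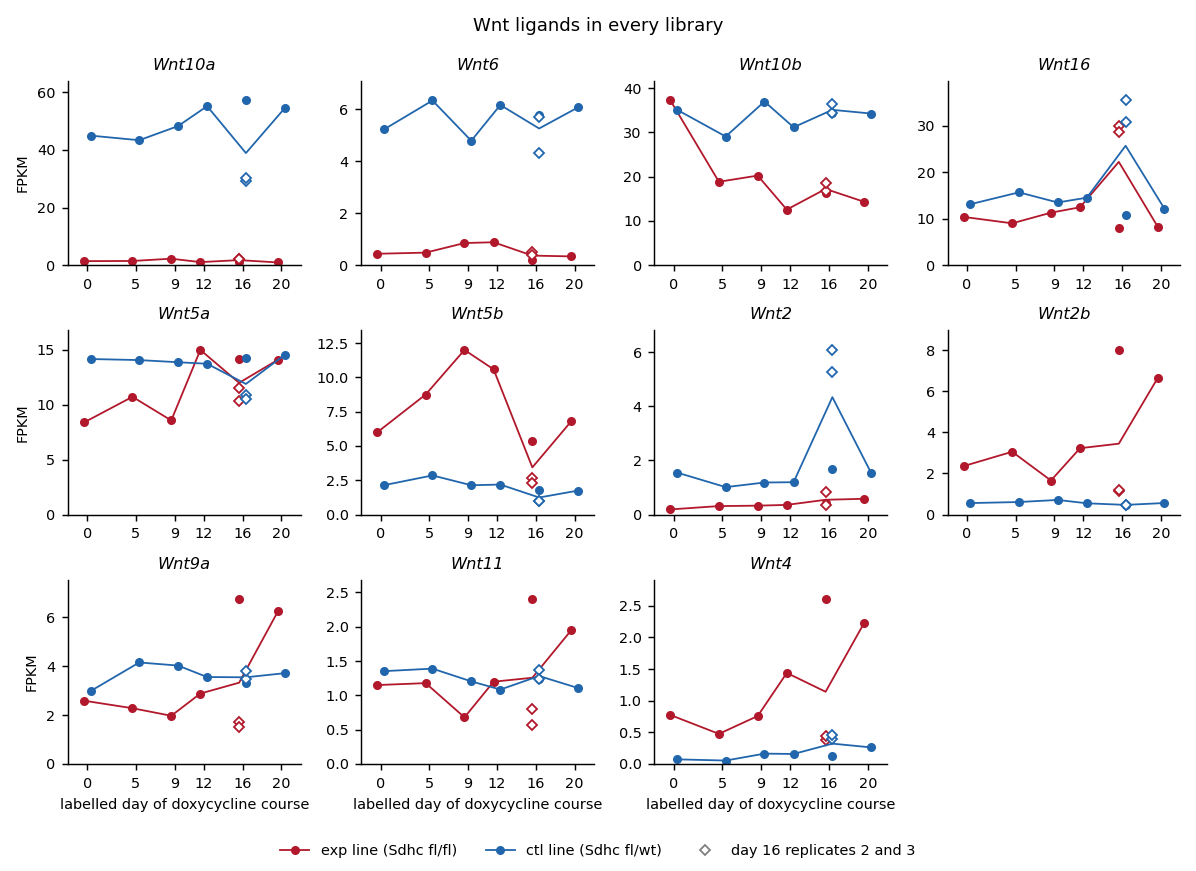
FPKM of the 11 described Wnt ligands by labelled day (horizontal axis) in the exp (red) and ctl (blue) lines. Points are libraries, open diamonds are day 16 replicates 2 and 3, and lines join the means of each day. Wnt10a and Wnt6 are low in exp on every day, Wnt10b is level with ctl only at day 0, and Wnt16 is raised in the 4 diamonds.

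Frizzled receptors were expressed at higher levels than the ligands, and 8 of the 10 were described and tested. Their summed level was 173 to 240 FPKM in exp (median 189) and 270 to 314 FPKM in ctl (median 288), without overlap. All 8 were called over all days, against 35.9% of all genes tested. Of them, 3 were higher in exp (Fzd4, Fzd5 and Fzd8) and 5 lower (Fzd1, Fzd2, Fzd3, Fzd6 and Fzd7). At day 16, 4 of the 8 were called, against 6.1% of all genes tested. The makeup of the frizzled mRNA differed between the lines. Fzd1 accounted for 12.7% to 16.2% of the frizzled sum in exp and 36.2% to 38.8% in ctl. Fzd9 and Fzd10 reached 0.476 and 0.521 FPKM at most. Fzd10 had 0.0170 FPKM in 1 exp library and was listed at 0 in the other 7, whereas in ctl it had 0.0236 to 0.521 FPKM. A 0 means that no read was assigned to the gene, which allows up to 3 reads by counting error alone.

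Fzd1, Fzd2 and Fzd7 form a subfamily with overlapping roles in embryonic development. In exp, Fzd1 had 22.8, 26.6, 28.9, 38.9, 24.7, 28.6, 28.2 and 27.1 FPKM. In ctl it had 97.7, 122, 106, 118, 105, 101, 105 and 104 FPKM. The lines did not overlap, and the gap was present at day 0, at -2.05 log2. The difference was -1.90 ± 0.06 log2 over all days (limma adjusted p = 3.75e-10) and -1.90 ± 0.07 at day 16 (adjusted p = 0.000166). Fzd2 had 62.2, 66.0, 94.4, 93.5, 67.4, 58.2, 52.5 and 65.9 FPKM in exp. Its ctl values were 79.5, 87.8, 88.9, 94.7, 90.7, 66.8, 69.5 and 88.2 FPKM. The lines overlapped, with exp days 9 and 12 as high as ctl. Fzd7 had 34.2, 33.0, 33.5, 38.4, 39.0, 34.0, 33.0 and 41.7 FPKM in exp. Its ctl values were 42.4, 47.9, 42.0, 43.9, 40.4, 40.9, 42.7 and 40.9 FPKM, which overlapped with exp only through exp day 20. Their differences were small, -0.26 ± 0.09 log2 for Fzd2 and -0.25 ± 0.06 for Fzd7 over all days (adjusted p = 0.0307 and 0.00631). The Fzd2 call was lost without exp day 16 replicate 2 (0.0529) or 3 (0.0569), without day 0, 5, 16 or 20 (0.0609 to 0.126) and with the replicates averaged (0.0541), and the Fzd7 call without day 16 (0.0535).

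Fzd3 and Fzd6 were both lower in exp without overlap. In exp, Fzd6 had 18.1, 18.7, 13.4, 14.8, 21.5, 19.0, 21.2 and 18.3 FPKM. The values in ctl were 30.7, 37.9, 36.5, 38.5, 35, 48.6, 48.5 and 36.7 FPKM. The ctl line was highest in day 16 replicates 2 and 3. The difference was -1.07 ± 0.08 log2 over all days (limma adjusted p = 2.32e-06) and -1.05 ± 0.14 at day 16 (0.0132). The day 16 call was lost without exp replicate 2 (0.0661) or 3 (0.0592) or ctl replicate 2 (0.0636) or 3 (0.0681). Fzd3 was far lower in level, with 0.862, 0.987, 0.577, 0.885, 0.660, 0.745, 0.807 and 0.593 FPKM in exp. The ctl line had 2.0, 2.28, 1.87, 1.88, 1.81, 1.57, 1.29 and 1.73 FPKM of Fzd3. Every exp value was under 1 FPKM, and the all-day difference was -0.67 ± 0.07 log2 (adjusted p = 2.71e-05), or -1.14 with 0.1 FPKM added, -0.24 with 5 FPKM added and -1.21 by limma voom. At day 16 Fzd3 did not pass (-0.55 ± 0.13 log2, adjusted p = 0.0600), and it passed without exp replicate 1 (0.0476).

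Fzd4, the receptor of Norrin in retinal vessels, and Fzd5 and Fzd8, which are close relatives of each other, were higher in exp in every library. In exp, Fzd4 had 15.4, 20.0, 16.8, 29.6, 21.5, 17.9, 19.3 and 24.1 FPKM. The ctl libraries had 5.20, 4.83, 4.77, 4.48, 3.93, 6.62, 6.72 and 4.63 FPKM. Its difference was 1.80 ± 0.13 log2 over all days (limma adjusted p = 1.10e-06) and 1.63 ± 0.19 at day 16 (adjusted p = 0.00816), and 1.40 at day 0. Fzd5 had 11.5, 9.69, 11, 11.5, 11.1, 10.9, 11.2 and 10.8 FPKM in exp. It had 5.52, 5.31, 5.17, 4.45, 5.29, 5.90, 5.59 and 4.93 FPKM in ctl. Fzd5 stayed between 9.69 and 11.5 FPKM in exp and between 4.45 and 5.90 FPKM in ctl, and its difference was 0.94 ± 0.05 log2 over all days (adjusted p = 7.95e-08) and 0.88 ± 0.07 at day 16 (adjusted p = 0.00152). Fzd8 had 7.96, 7.88, 11.6, 11.8, 8.02, 9.38, 8.73 and 8.06 FPKM in exp. In ctl Fzd8 had 6.33, 5.46, 6.86, 5.97, 5.88, 6.50, 6.81 and 5.56 FPKM. Of these 3 receptors the gap was smallest for Fzd8, at 0.49 ± 0.07 log2 over all days (adjusted p = 0.000179), and its day 16 difference of 0.39 ± 0.09 did not pass (0.0556), but passed without exp replicate 1 (0.0276) and with a replicate block (0.0419).

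The co-receptors differed in opposite directions. Lrp5, known for its part in bone mass, was higher in exp, and Lrp6, which is required in the embryo, was lower. In exp, Lrp5 had 11.5, 14.9, 22.2, 23.8, 16.5, 13.2, 12.0 and 19.3 FPKM. In ctl it had 9.40, 9.72, 9.80, 10.0, 9.31, 9.60, 10.1 and 8.82 FPKM. The exp line varied more, highest at days 9 and 12, and the lines did not overlap. Lrp6 had 19.1, 24.4, 22.5, 25.3, 21.5, 22.3, 23.2 and 23.0 FPKM in exp. It had 34.0, 42.5, 36.1, 36.0, 33.6, 30.1, 28.4 and 33.4 FPKM in ctl, all above exp. The all-day differences were 0.70 ± 0.11 log2 for Lrp5 (limma adjusted p = 0.000505) and -0.57 ± 0.06 for Lrp6 (adjusted p = 1.68e-05). At day 16, Lrp5 did not pass (0.47 ± 0.12, adjusted p = 0.0780; 0.0341 without exp replicate 1), while Lrp6 did (-0.44 ± 0.08, 0.0313). The Lrp6 call was lost without exp replicate 2 (0.121) or 3 (0.0972), without ctl replicate 2 (0.121) or 3 (0.0790), and with a replicate block (0.0521).

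Ror1 and Ror2 are receptor kinases of the branch without beta-catenin, and Ror2 is a receptor of Wnt5a. Ror1 had 0.819, 1.17, 0.916, 1.59, 1.04, 1.44, 1.05 and 1.67 FPKM in exp. It had 1.71, 1.76, 1.43, 1.58, 1.59, 1.71, 1.73 and 1.69 FPKM in ctl. The lines overlapped at the top of the exp values, and the difference was -0.27 ± 0.08 log2 over all days (limma adjusted p = 0.0197). That call was lost without day 16 replicates 2 and 3 (0.0622), without day 16 (0.141) and with the replicates averaged (0.0762), and the size was -0.45 with 0.1 FPKM added, -0.10 with 5 FPKM added and -0.46 by limma voom. Ror2 had 14.4 to 23.4 FPKM in exp (median 19.0) and 19.7 to 22.9 FPKM in ctl (median 20.8), and was not called (-0.16 ± 0.09, adjusted p = 0.177).

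Without day 16 replicates 2 and 3 the 8 frizzled receptors and both co-receptors kept their all-day calls (limma adjusted p at most 0.0487). The differences were -1.93 log2 for Fzd1, -1.01 for Fzd6, -0.74 for Fzd3, -0.25 for Fzd2, -0.23 for Fzd7 and -0.64 for Lrp6. They were 1.95 log2 for Fzd4, 0.97 for Fzd5, 0.53 for Fzd8 and 0.82 for Lrp5. Ror1 (-0.27) and Ror2 (-0.22) were not called there.

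**Figure D3:**
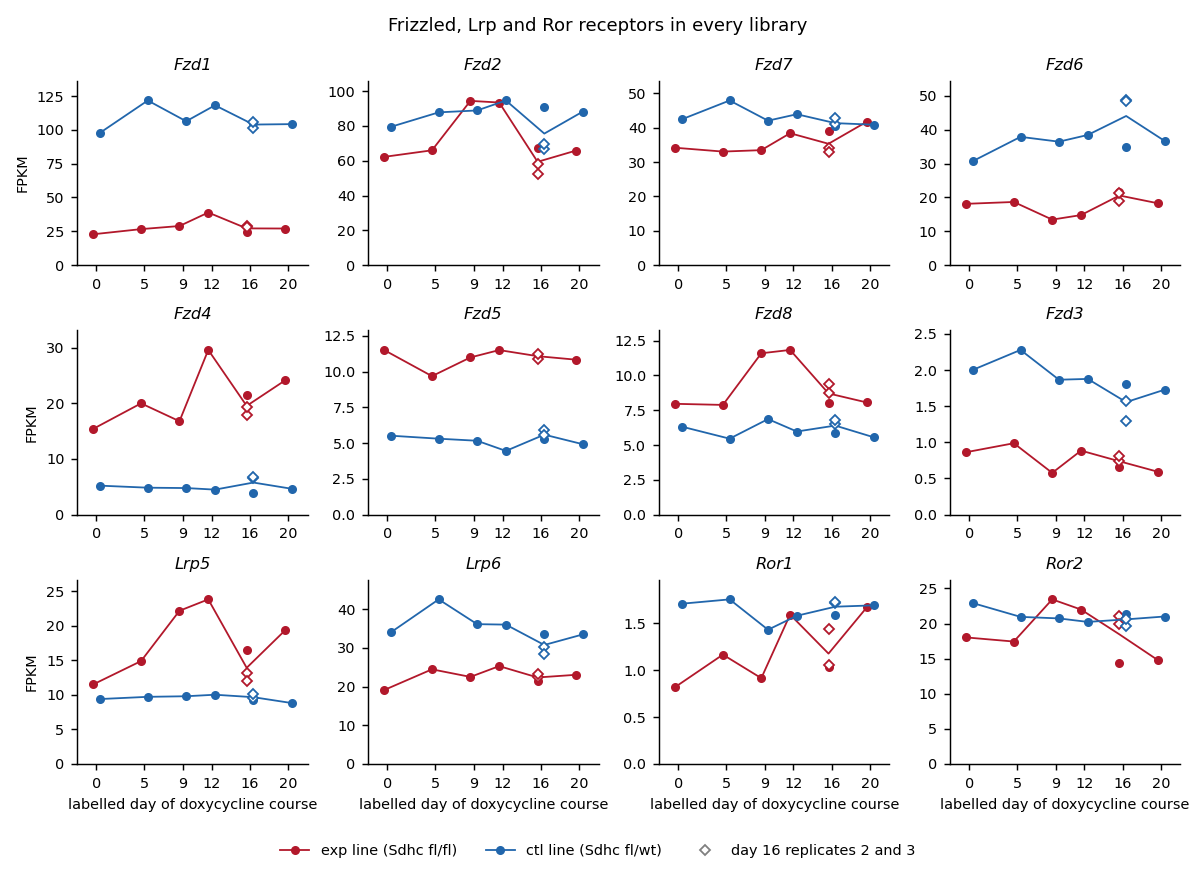
FPKM of the 8 described frizzled receptors, Lrp5, Lrp6, Ror1 and Ror2 by labelled day (horizontal axis) in exp (red) and ctl (blue). Points are libraries, open diamonds are day 16 replicates 2 and 3, and lines join the means of each day. Fzd1, Fzd3, Fzd6 and Lrp6 lie lower and Fzd4, Fzd5, Fzd8 and Lrp5 higher in exp in every library.

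Of the 9 secreted antagonists, 5 were described, and over all days 3 of them were higher and 1 was lower in exp. The shares of all genes tested were 19.2% higher and 16.7% lower. The summed level of the antagonists overlapped between the lines, at 173 to 289 FPKM in exp (median 224) and 120 to 223 FPKM in ctl (median 207). Sfrp2, which binds Wnt ligands outside the cell, made up 76.8% to 90.4% of it in exp and 88.0% to 94.8% in ctl, and was itself not called. It had 141 to 258 FPKM in exp (median 184) and 105 to 209 FPKM in ctl (median 192), with a difference of 0.13 ± 0.17 log2 over all days (limma adjusted p = 0.584). The 2 lowest ctl values of Sfrp2, 105 and 116 FPKM, were day 16 replicates 2 and 3.

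The less abundant antagonists Sfrp1, Dkk2 and Frzb were higher in exp. In exp, Sfrp1 had 5.29, 8.17, 6.10, 13.0, 12.9, 8.12, 5.99 and 12.4 FPKM. The ctl line had 1.77, 1.80, 1.37, 1.54, 1.20, 3.04, 3.34 and 1.30 FPKM, all below exp. The difference was 1.75 ± 0.21 log2 over all days (limma adjusted p = 5.99e-05), and 1.51 ± 0.35 at day 16, which did not pass (0.0642). With 5 FPKM added the all-day difference was 0.99 log2, also called. Dkk2, which binds Lrp5 and Lrp6, had 23.5, 33.2, 32.4, 42.7, 19.4, 10.6, 8.45 and 36.7 FPKM in exp. It had 9.22, 7.98, 4.76, 5.58, 4.15, 4.12, 4.37 and 4.68 FPKM in ctl. The lowest exp library, day 16 replicate 3, was below ctl day 0 and above the other ctl libraries. The difference was 1.90 ± 0.22 log2 over all days (adjusted p = 5.78e-05) and 1.33 ± 0.28 at day 16 (adjusted p = 0.0490). That day 16 call was lost in 13 of 16 alternatives, with an adjusted p of 0.133 without exp replicate 2, 0.0586 without exp replicate 3, 0.124, 0.159 and 0.165 without ctl replicates 1, 2 and 3, and 0.0568 with a replicate block.

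Frzb, the founding member of the frizzled-related proteins, was low in ctl. It had 1.72, 2.14, 2.48, 4.58, 2.55, 0.933, 0.655 and 3.84 FPKM in exp. In ctl the values were 0.214, 0.391, 0.241, 0.183, 0.0392, 0.0887, 0.0928 and 0.213 FPKM, all below exp. The difference was 1.41 ± 0.18 log2 over all days (limma adjusted p = 0.000112), and 3.0 with 0.1 FPKM added, 0.49 with 5 FPKM added and 3.63 by limma voom, called each time. Its day 16 mean was too low for a test. Dkk3, a divergent member of the Dickkopf family, had 1.42, 1.66, 1.70, 1.86, 1.57, 7.52, 6.44 and 1.61 FPKM in exp. It had 5.24, 6.54, 5.93, 5.67, 5.29, 6.81, 6.98 and 5.57 FPKM in ctl. In exp Dkk3 was close to ctl in day 16 replicates 2 and 3 and below it in the other 6 libraries. The difference was -1.01 ± 0.24 log2 over all days (adjusted p = 0.00766), -1.29 in the day 16 replicate 1 pair and 0.01 between the means of replicates 2 and 3. With 5 FPKM added the all-day difference was -0.51 log2, also called. Dkk1, Sfrp5 and Wif1 reached at most 0.0350, 0.0546 and 0.0908 FPKM. Sfrp4 reached 1 FPKM in 2 libraries only, exp day 16 replicate 1 (1.49 FPKM) and exp day 20 (1.16 FPKM).

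Axin2, a feedback inhibitor that beta-catenin signalling induces in many tissues, was low in both lines. It had 1.78, 1.79, 1.95, 2.23, 1.94, 2.33, 2.68 and 2.37 FPKM in exp. The ctl libraries had 2.62, 3.01, 2.44, 2.35, 2.26, 3.99, 3.89 and 2.18 FPKM. The lines overlapped, and ctl day 16 replicates 2 and 3 were the highest. The difference was -0.28 ± 0.11 log2 over all days and -0.38 ± 0.20 at day 16, and neither passed (limma adjusted p = 0.0583 and 0.317). The all-day difference passed without ctl day 16 replicate 1 (-0.34, adjusted p = 0.0215), without day 20 (0.0436), with a replicate block (0.0255), after median-of-ratios rescaling (0.0466) and after quantile normalization (0.0182). Without day 16 replicates 2 and 3 it was -0.21 log2 (0.116). In that fit Dkk2 (2.2 log2), Sfrp1 (2.02), Frzb (1.64) and Dkk3 (-1.35) were called (limma adjusted p at most 0.000182), and Sfrp2 had the opposite sign, at -0.15 log2 (0.155).

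**Figure D4:**
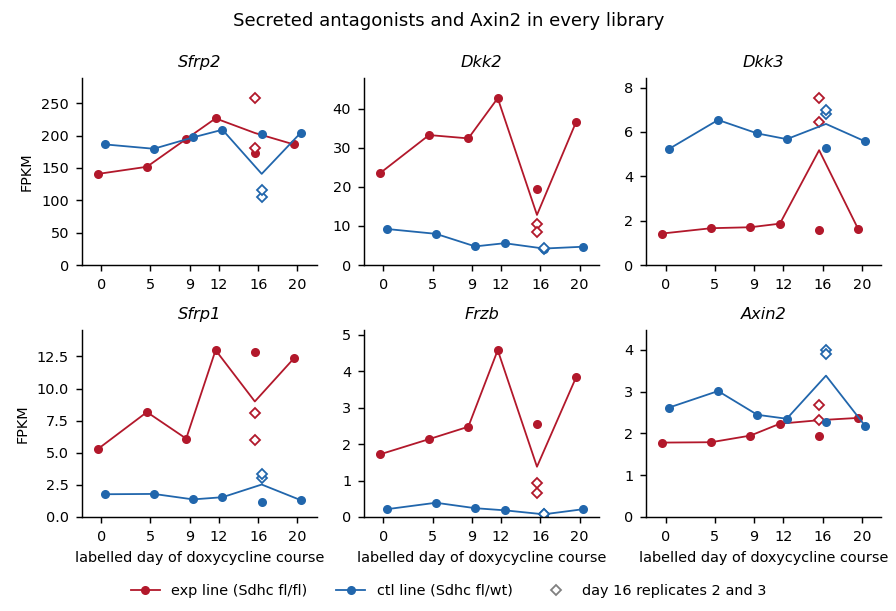
FPKM of the 5 described antagonists and Axin2 by labelled day (horizontal axis) in exp (red) and ctl (blue). Points are libraries, open diamonds are day 16 replicates 2 and 3, and lines join the means of each day. Sfrp1 and Frzb are higher in exp in every library, and Dkk3 in exp reaches the ctl level only in the diamonds, at 7.52 and 6.44 FPKM.

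No member passed the test for a line difference that changes with time. Of 28 members tested, 0 were called for the slope difference between exp and ctl (limma, per 20 days), against 0.207% of all genes (0.183% with the higher slope in exp and 0.0239% with the lower). An unadjusted p under 0.05 was found for 3 members and for 1388 of all genes tested. The slope differences ran from -1.11 log2 for Wnt10b to 0.84 for Dkk3. In the ctl line 0 members and 0% of all genes were called for a slope (limma), with 0 members and 203 genes at an unadjusted p under 0.05. Without day 16 replicates 2 and 3 the exp slope was called for 5 of 27 members and 6.48% of all genes: Wnt10b fell at -1.18 log2 per 20 days, while Wnt2b (1.44), Wnt9a (1.30), Sfrp1 (1.19) and Wnt5a (0.76) rose (limma adjusted p = 0.0358, 0.0474, 0.0445, 0.0261 and 0.0430). With all libraries these 4 exp slopes did not pass, and no slope difference passed without those replicates.

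Several members followed the split of the day 16 replicates. In exp, 5 of the 28 differed by at least 1 log2 between replicates 2 and 3 and replicate 1 (Dkk3 and Wnt16 higher, Wnt2b, Wnt9a and Wnt11 lower in replicates 2 and 3), against 5.02% of all genes. In ctl, 2 did so (Wnt16 and Wnt2, both higher), against 1.63%, and Wnt16 alone did so the same way in both lines, against 0.573%. Fzd7, Wnt2b, Wnt9a and Wnt11 were higher in exp day 16 replicate 1 and exp day 20 than in the other 6 exp libraries, a pattern of 6.08% of all genes tested. The pattern sets no minimum size, and Fzd7 had 39.0 and 41.7 FPKM there against 38.4 FPKM at exp day 12. Wnt4, whose mean was too low for a test, showed it too, with 2.60 and 2.24 FPKM against at most 1.44 FPKM in the other exp libraries. The summed level of 11 mesothelial and simple epithelial markers, 10 of which reached 1 FPKM in at least 3 libraries, was also high in exp day 16 replicate 1 and at exp day 20. It was 1084 FPKM in exp day 16 replicate 1 and 958 FPKM at exp day 20, against 86.7 and 98.1 FPKM in exp day 16 replicates 2 and 3. The range of that sum was 86.7 to 1084 FPKM in exp and 99.4 to 129 FPKM in ctl, where most of it was Msln (15.3 to 131 FPKM in exp and 84.8 to 121 FPKM in ctl). The other markers of the list mostly differed between the lines in every library: Upk3b had 22.9 to 455 FPKM in exp and at most 0.611 FPKM in ctl, and Upk1b, Wt1, Lrrn4, Krt7, Krt8, Krt18 and Krt19 were also higher in each exp library than in any ctl library, while Epcam and Cdh1 overlapped. Most markers of this list thus differed between the lines, and the sum of the list also differed between the exp day 16 replicates. The 4 keratinocyte markers, of which Krt14 alone reached 1 FPKM and Krt5 stayed under 0.1 FPKM, summed to 108 and 83.6 FPKM in the first pair and 6.40 and 9.83 FPKM in the second. The 7 smooth muscle markers, 5 of which reached 1 FPKM in at least 3 libraries, summed to 690 and 632 FPKM in exp day 16 replicates 2 and 3, where Dkk3 and Wnt16 were high, and to 479 and 311 FPKM in exp day 16 replicate 1 and at exp day 20. The range of this sum was 191 to 690 FPKM in exp and 174 to 374 FPKM in ctl. In ctl, Wnt16 had 30.9 and 35.5 FPKM in day 16 replicates 2 and 3, and the marker sums of these ctl libraries are not given singly. Dkk3 had 5.24 to 6.98 FPKM across the ctl libraries. The part of these markers' cells in the values of Wnt2b, Wnt4, Wnt9a, Wnt11, Fzd7, Dkk3 and Wnt16 was not tested, nor was their part in the line differences.

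The day 16 line difference itself depended on the replicate by at least 1 log2 in 10 of the 29 members. The share of all genes that did so was not computed, so this count cannot be set against other genes. The difference was -4.87 log2 in the replicate 1 pair and -3.31 between the means of replicates 2 and 3 for Wnt10a, and -0.89 and -2.08 for Wnt2. Members higher in exp had 2.61 and 0.57 log2 (Wnt2b), 2.66 and 0.93 (Sfrp1), 1.77 and 0.71 (Frzb). The sign differed between the replicates for Sfrp2 (-0.22 and 0.97), Wnt9a (0.84 and -0.83), Wnt11 (0.61 and -0.46), Wnt4 (1.69 and -0.01) and Dkk3, given with its values.

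**Figure D5:**
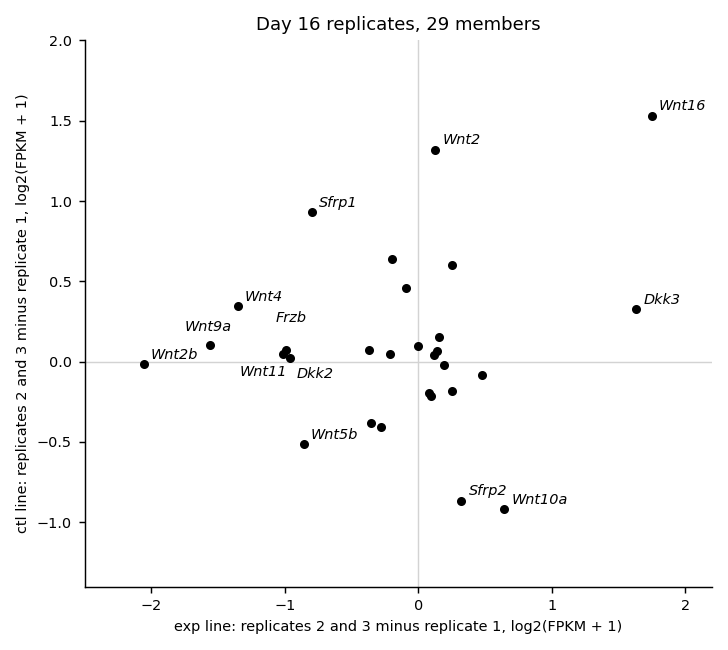
Day 16 replicates 2 and 3 minus replicate 1 in exp (horizontal axis) and in ctl (vertical axis), in log2(FPKM + 1), for the 29 described members. Points are genes, named where either difference was at least 0.75 log2 in size. Wnt16 lies far from 0 on both axes, at 1.75 and 1.53, and Wnt2b, Wnt9a and Dkk3 on the exp axis alone.

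Genes that act beside the members were taken from 7 lists of 76 genes, of which 59 were tested at day 16 and 60 over all days. At day 16, 4 were higher and 2 lower in exp, and over all days 17 were higher and 22 lower. Of all genes tested, 3.1% were higher and 3.01% lower at day 16, and 19.2% higher and 16.7% lower over all days. The same shares apply beside each list count below. Each pathway gene given below with an all-day call kept it without day 16 replicates 2 and 3, apart from Rspo2, Znrf3 and Twist1, which this statement does not cover. The day 16 calls were Notum, Rspo3, Daam2 and Tcf7l1 (higher) and Apc2 and Vangl1 (lower), and each was lost without at least 1 of the 6 libraries. Wls, which carries Wnt proteins to the cell surface, had 126 to 158 FPKM in exp and 130 to 150 FPKM in ctl and was not called (0.02 ± 0.04 log2 over all days, limma adjusted p = 0.699). Notum, which inactivates Wnt by removing its lipid, had 2.80 to 5.62 FPKM in exp and 0.794 to 1.45 FPKM in ctl (1.19 ± 0.11 over all days, adjusted p = 8.37e-06).

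Rspo1, Rspo2 and Rspo3, R-spondins that keep frizzled receptors at the cell surface, were higher in exp. Over all days 4 of the 7 tested genes of receptor turnover were higher and 2 lower in exp. Rspo1 had 2.75 to 23.4 FPKM in exp and 0.0806 to 0.235 FPKM in ctl (2.85 ± 0.38 log2, limma adjusted p = 0.000146). Rspo2 had 5.97 to 41.4 FPKM in exp and 3.11 to 4.03 FPKM in ctl (1.55 ± 0.35, limma adjusted p = 0.00551). Rspo3 had 10.6 to 40.1 FPKM in exp and 5.06 to 6.88 FPKM in ctl (1.64 ± 0.23, adjusted p = 0.000234), and rose within exp by 1.77 ± 0.34 log2 per 20 days (adjusted p = 0.0148), a call lost without day 0 (0.146) or day 16 (0.0783). Kremen1, which removes Lrp co-receptors together with Dkk proteins, had 12.9 to 18.2 FPKM in exp and 18.6 to 23.6 FPKM in ctl (-0.45 ± 0.06, adjusted p = 0.000237).

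Of the 3 other antagonists tested, 1 was higher and 2 were lower over all days. Igfbp4, a growth factor binding protein, had 99.3 to 380 FPKM in exp and 43.5 to 144 FPKM in ctl. Apcdd1 had 3.19 to 8.14 FPKM in exp and 6.58 to 14.9 FPKM in ctl, and Tpbg had 19.6 to 24.5 FPKM in exp and 23.9 to 28.7 FPKM in ctl. Their differences were 1.09 ± 0.30, -1.06 ± 0.21 and -0.25 ± 0.06 log2 (limma adjusted p = 0.0141, 0.00208 and 0.00625). Among other receptors and planar polarity genes, 7 of 12 were higher and 4 lower. The receptor genes Ptk7 and Ryk differed by 0.63 ± 0.11 and -0.31 ± 0.04 log2 and Daam1, a formin that works with dishevelled, by 0.52 ± 0.08 (adjusted p = 0.000777, 0.000225 and 0.000593).

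Of 15 transducers and destruction complex genes, 1 was higher and 7 were lower over all days. Apc2, a relative of the tumour suppressor Apc, had 0.863 to 1.99 FPKM in exp and 3.75 to 7.14 FPKM in ctl (-1.51 ± 0.12 log2, limma adjusted p = 2.71e-06). Ctnnb1, which encodes beta-catenin, had 268 to 363 FPKM in exp and 358 to 413 FPKM in ctl (-0.24 ± 0.06, adjusted p = 0.00724), and Dvl2, a dishevelled protein, differed by -0.29 ± 0.08 (adjusted p = 0.0131, and 0.0896 without day 16). Of 13 nuclear factors 2 were higher and 3 lower, among them Tcf7l1 at 0.69 ± 0.08, Tcf7 at -0.44 ± 0.06 and Pygo1 at -0.97 ± 0.14 (adjusted p = 7.53e-05, 0.000209 and 0.000261).

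Genes often read as targets of the pathway beside Axin2 were lower more than higher. Of 12 tested over all days, 7 were lower and 2 higher in exp, against 16.7% and 19.2% of all genes tested. Their median was -0.54 log2 against 0.01 log2 over all genes tested. Nkd1, a feedback inhibitor, had 0.101 to 0.279 FPKM in exp and 1.30 to 3.51 FPKM in ctl (-1.55 ± 0.12 log2, limma adjusted p = 2.52e-06). Cd44, an adhesion receptor, had 17.8 to 54.0 FPKM in exp and 52.5 to 93.3 FPKM in ctl (-1.34 ± 0.17, adjusted p = 0.000112). Every exp value of Nkd1 was under 1 FPKM, so it entered the test through ctl. Notum, given above, is in this list too and was higher, as was the transcription factor gene Twist1. Of the lower genes, Znrf3, Apcdd1 and Tcf7 also belong to lists above and were counted there. At day 16 the list had 1 member higher and 0 lower of 12 tested. Several of these genes respond to other pathways as well.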

How the data were processed

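RNA of 16 libraries from 2 fibroblast lines was measured by sequencing; the title of each gives its line and day. The authors deposited 1 table of FPKM per gene for each library. The submitters' processing notes name mm9 and Bowtie2 2.2.3. How reads were assigned to genes, with which annotation and whether by strand, is not given in these sources, so reads of overlapping or antisense genes cannot be told apart. Of 24485 gene IDs, 24416 were matched to a symbol.

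Differences were tested with limma 3.58.1 and statmod 1.5.0 (R 4.3.3; tables and figures in Python 3.11.15 with pandas 2.3.3 and numpy 2.4.6) on log2(FPKM + 1). Genes entered a fit if they averaged at least 1 FPKM in its libraries. The empirical Bayes step used a trend and its robust form, tests were two-sided, and p-values were adjusted by Benjamini-Hochberg over all genes tested, with a threshold of 0.05. This scale understates the change of low genes. The fits were day 16 (6 libraries), all days (line, with day as a factor), the line-by-day slope difference per 20 days, and a slope within each line from a joint fit. At day 0 each line has 1 library, so its difference was not tested.

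An FPKM value is a whole multiple of the value of 1 read, so whole reads could be rebuilt for 18966 genes (within 0.02 read, largest distance 0.000664), which gave the depths and the reads for limma voom. Day 16 replicates 2 and 3 of a line differed by more than sampling noise and are counted as separate. At day 16, same-numbered replicates of both lines deviated together (r = 0.381, 0.272 and 0.333 for replicates 1, 2 and 3). Replicate 1 stood apart in both lines, which can give such values by itself, so pairing by number was not shown. The main day 16 fit was unpaired, and the replicate number entered as a block only in an alternative. Coordinates are 1-based. Scripts were tested on simulated data. Members with a call in any fit, and Axin2, are given in every library, other members from 1 FPKM in 3 libraries by range, and the rest by their highest value. Up to 3 genes per pathway list, those with the smallest p, are named. Wls, Twist1, Rspo2, Znrf3 and the day 16 calls Daam2 and Vangl1, outside that rule, were added after their values were seen. The members and lists were chosen with earlier results of these data known. Alternatives were other pseudocounts and filters, 2 rescalings, plain limma, limma voom, each replicate or day left out, averaged replicates and the replicate block.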

Additional observations from a re-analysis of the deposited data

How the results depend on the processing

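Over 1182 alternative values of 61 member results, 1086 kept their direction and side of the threshold, 39 lost a call, 40 gained one and 17 turned round, all 17 of values that were not called. Of 21 members called over all days, 18 kept the call under every alternative that tested them (exceptions Fzd2, Fzd7 and Ror1), and of 9 at day 16, 6 did (Wnt10a, Wnt10b, Wnt6, Fzd1, Fzd4 and Fzd5). For 25 values of pathway genes beside the members, 494 of 524 alternatives kept the call, 30 lost it and 0 turned round.

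Of the values that turned round, those with 1 replicate left out spanned -0.74 to 0.12 for Dkk3 at day 16, -0.44 to 0.12 for Wnt11 at day 16, -0.16 to 0.026 for Wnt11 over all days, -0.75 to 0.34 for Wnt16 at day 16, -0.11 to 0.14 for Wnt5a at day 16 and -0.79 to 0.014 for Wnt9a at day 16. Day 16 replicates 2 and 3 alone gave 0.012 for Dkk3 and 0.019 for Ror2, and quantile normalization gave -0.0021 for Wnt5a at day 16. Over all days Sfrp2 was -0.15 and Wnt11 0.085 without day 16 replicates 2 and 3, and Sfrp2 was -0.025 with the replicates averaged and -0.14 without day 16. All are differences in log2, and the cause was not tested.

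The number of members called at day 16 was 9 (6.1% of all genes), and 6 to 14 with 1 replicate left out (1.57% to 12.8% of all genes; 14 without exp replicate 1). It was 20 of 25, with 34.7% of all genes, in day 16 replicates 2 and 3 alone, an alternative chosen after seeing the data. Over all days it was 21, and 13 of 17 with a mean of at least 5 FPKM, where fewer genes are tested. For the exp slope it was 1, 0 to 1 with 1 replicate left out, 5 without day 16 replicates 2 and 3 (6.48% of all genes, against 4.95%), 0 with the replicates averaged, and 0 without day 0, day 9, day 16 or day 20; beyond the number of libraries the cause was not tested. For the day 0 difference of at least 1 log2 it was 11, 14 with a pseudocount of 0.1 FPKM and 3 with a pseudocount of 5 FPKM, which shrinks differences of low genes.

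With the replicate number as a block 9 members were called at day 16, where Dkk2 and Lrp6 lost and Fzd8 and Wnt5b gained a call, and 23 over all days (21 without it), where Axin2 and Wnt16 gained one. Over all genes the block gave 1023 calls at day 16 against 765, and 0 members passed for the slope difference.

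Day 0, 5, 9, 12 and 20 have 1 library per line, so slopes rest on few points. Members under 1 FPKM in nearly every library rest on few reads and were not tested. Line and genotype cannot be told apart.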
